A study of Mus musculus with 6 samples.

Results

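The genes described here encode proteins of the cytosolic ribosome. They were chosen as the rows whose Ensembl ID maps to 53 listed ribosomal protein symbols, parent genes only, out of 28786 gene IDs in the count table. Of the 53 genes, 28 encode large subunit proteins (Rpl), 22 small subunit proteins (Rps and Rpsa) and 3 the stalk of the large subunit (Rplp0, Rplp1 and Rplp2). The rule uses no measured value, but the list was drawn up with results of these data known.

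The samples were haematopoietic stem cells (HSCs) sorted from bone marrow. The mice were wild type, of the C57BL/6 strain and 6 to 8 weeks old, and the labels name no treatment. Both groups carried the same surface gate, negative for lineage markers and CD48 and positive for Sca-1, c-Kit and CD150. They differed in the signal of TMRM, a dye whose uptake by mitochondria depends on their membrane potential, with 3 TMRM-high and 3 TMRM-low libraries of 1500 cells each. The labels give no number of mice and do not tie any library to a mouse of its own. All p-values therefore describe the spread among these 6 libraries, part or all of which may be technical.

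A ribosome needs 1 copy of nearly every one of its proteins, and the mRNAs for these proteins are among the most abundant in a growing cell. Most of these mRNAs start with a C followed by a run of pyrimidines, the terminal oligopyrimidine tract, through which mTORC1 and LARP1 control their translation. HSCs are known to make protein slowly, and loss of 1 copy of several of these genes causes anaemia in people. The genes have left many processed pseudogenes, intronless copies of the mRNA elsewhere in the genome, and short reads can often be assigned to parent or copy only at a few differing bases.

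Because such copies bear on the largest changes seen here, transcripts of a parent and its copy were compared first (GENCODE M21, GRCm38). Rpl3, a large subunit protein close to the peptidyl transferase centre, lies at chr15:80077791-80091868 on the minus strand. Its processed pseudogene Rpl3-ps1 lies at chrX:13202571-13203780 and aligns over 1210 bases with 2 substitutions and 99.8% identity. The substitutions are C137A and T866C, counted from 1 at the 5′ end of the 1351-base Rpl3 transcript, the parent's base first, and both lie in its coding sequence. They are in capitals in the 60-base windows below, which cover bases 107 to 166 and 836 to 895 of Rpl3.
Rpl3, first window: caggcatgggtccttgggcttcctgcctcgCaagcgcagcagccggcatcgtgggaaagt
Rpl3-ps1, first window: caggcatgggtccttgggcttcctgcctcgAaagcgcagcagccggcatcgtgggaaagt
Rpl3, second window: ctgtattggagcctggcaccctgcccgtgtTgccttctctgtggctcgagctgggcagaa
Rpl3-ps1, second window: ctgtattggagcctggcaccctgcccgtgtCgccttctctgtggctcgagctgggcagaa

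Rplp0, which anchors the stalk to the large subunit, lies at chr5:115559467-115563727 on the plus strand. Its copy Gm8730, at chr8:102864845-102865798, aligns over 954 bases with 12 substitutions and 98.7% identity. A stretch of 90 bases, 495 to 584 of the Rplp0 transcript, holds A511G, A514G and A568T, shown in capitals.
Rplp0: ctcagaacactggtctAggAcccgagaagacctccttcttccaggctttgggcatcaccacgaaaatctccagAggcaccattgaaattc
Gm8730: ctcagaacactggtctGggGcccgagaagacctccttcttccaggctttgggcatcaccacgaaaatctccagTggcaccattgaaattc

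Other pairs did not differ at all over the bases that align, so they are not printed. No substitution separated Rps16 from Rps16-ps2 over 441 bases, Rpl28 from Rpl28-ps1 over 414, Rps12 from Rps12-ps3 over 450, Rpl27 from Gm11518 over 411, or Rpl5 from Gm15500 over 1018. Across the 53 genes, a median of 63.2% of the 31-base words of the principal transcript also occurred in another gene, from 8.95% to 99.0%. The table lists 138 copies, taken here as genes with at least 50% of their own words shared with a parent, for 41 of the 53 genes. The other 12 genes had no copy in the table. Every result below is therefore given as deposited and with copies summed into their parent, which is called a family.

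Totals of the estimated counts ran from 14270069 to 22070594 per library. Levels are in CPM, the counts of a gene normalised to the TMM-scaled library total, and a change is the log2 fold change of TMRM-high minus TMRM-low with its standard error (SE). A gene was called at an adjusted p below 0.05 in edgeR's quasi-likelihood test, fitted and adjusted over all 13662 genes that passed the filter on low counts. TMRM-high libraries resembled each other more closely than TMRM-low ones. In a chi-square test of family counts, pairs of TMRM-high libraries gave 3.30 to 13.2 per degree of freedom and pairs of TMRM-low libraries 31.3 to 62.4, with 1 as the value from counting noise alone.

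The RNA of the gate's other possible cell types also moved with the TMRM label. Summed granulocyte and monocyte markers stood at 15538 to 15911 CPM in TMRM-high and 3651 to 4022 CPM in TMRM-low libraries, with 12 of 13 tested markers higher. B lymphoid markers stood at 547 to 559 against 54.0 to 59.0 CPM (10 of 13 higher, with Vpreb2 and Ms4a1 at 0 in TMRM-low), basophil, mast cell and eosinophil markers at 312 to 328 against 57.5 to 70.5 CPM (5 of 10 higher, Epx at 0 in TMRM-low), and erythroid markers at 308 to 339 against 122 to 160 CPM (6 of 12 higher). Megakaryocyte markers stood at 435 to 446 against 217 to 247 CPM (2 higher and 1 lower of 7). T and NK markers summed to 612 to 621 against 385 to 472 CPM, although 7 of 11 were lower and 1 higher. HSC identity markers summed to 1362 to 1373 in TMRM-high and 2228 to 2390 CPM in TMRM-low libraries, with 7 lower and 1 higher of 15. Procr, an HSC surface marker outside the gate, was at 3.54, 3.28 and 3.89 against 44.1, 24.5 and 32.9 CPM, while Kit, which is in the gate, was at 260.1, 269 and 260.2 against 253, 192 and 299 CPM. Without TMRM-high library 1, 2 or 3, only 2, 3 or 2 erythroid markers were called higher, and without TMRM-low library 1 the basophil, mast cell and eosinophil markers called higher numbered 8. Without TMRM-low library 2, 4 megakaryocyte markers were called higher. The part of these differences in the ribosomal protein results was not tested.

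Ribosomal protein mRNA made up a smaller share of the libraries sorted as TMRM-high. The 53 genes held 5.13%, 4.85% and 4.99% of the counts in TMRM-high libraries 1 to 3, and 6.45%, 6.24% and 6.03% in TMRM-low libraries 1 to 3. All 3 TMRM-high libraries were below all 3 TMRM-low libraries, with means of 4.99% ± 0.137 and 6.24% ± 0.209 (SD, n = 3 each). With copies summed in, the shares were 5.84%, 5.54% and 5.70% against 7.08%, 7.05% and 6.62%, and the groups were again apart. The exact two-sided permutation test gave p = 0.1 for each, the smallest value that 3 against 3 libraries allow. In RNA pooled from 1500 cells, fewer cells with a high level and less of this RNA in each cell cannot be told apart.

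Within the ribosome all 3 classes were lower in the TMRM-high libraries. Large subunit families held 2.67% ± 0.0656 of the counts in TMRM-high libraries and 3.29% ± 0.137 in TMRM-low ones, a TMRM-low mean 1.23-fold higher. Small subunit families held 2.65% ± 0.0710 and 3.14% ± 0.0941, 1.18-fold higher in TMRM-low. Stalk families held 0.370% ± 0.0155 and 0.486% ± 0.0243, 1.31-fold higher in TMRM-low. Each of the 3 classes had its TMRM-high libraries below its TMRM-low libraries (exact two-sided permutation p = 0.1 each, the smallest possible; n = 3 per group).

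The balance between the subunits depended on whether copies were counted. As deposited, small over large subunit counts came to 1.18 in each TMRM-high library and 1.03 to 1.06 in the TMRM-low libraries. With copies summed in, the ratio was 0.992 to 0.996 against 0.946 to 0.968, so that the difference between group means shrank from 1.13-fold to 1.04-fold. The groups stayed apart in both versions (exact two-sided permutation p = 0.1, the smallest possible). Stalk over large subunit counts, with copies, were 0.136 to 0.141 in TMRM-high libraries and 0.146 to 0.150 in TMRM-low ones, with the same p.

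**Figure D1:**
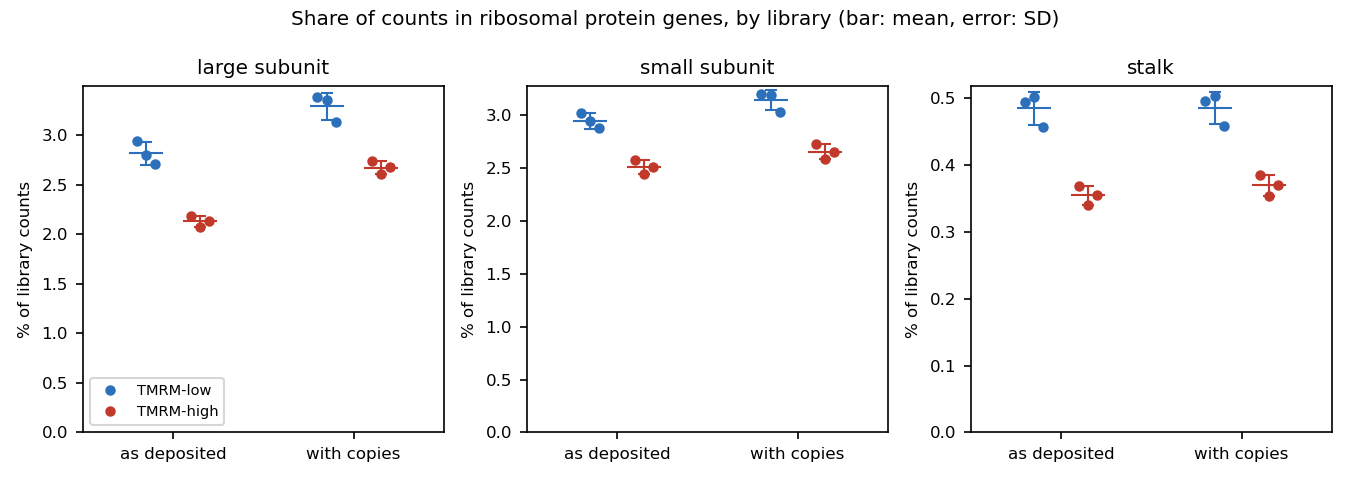
Share of library counts (percent, from 0) in large subunit, small subunit and stalk genes, as deposited and with copies summed in. Each point is 1 library, the long bar is the mean and the error bar is the SD of 3 libraries; in each class the TMRM-high points lie below the TMRM-low points.

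Gene by gene, 52 of the 53 could be tested as deposited, and 36 were lower in TMRM-high libraries, 0 were higher and 16 did not pass. Over all 13662 genes tested, 5.12% were called lower and 5.84% higher. The called genes were 19 of 28 large subunit genes, 15 of 21 tested small subunit genes and 2 of 3 stalk genes. With an unadjusted p below 0.05, 41 of the 52 were lower and 1, Rpl27, was higher. DESeq2 and limma voom each called Rpl27 higher too. Over all 13662 genes, DESeq2 called 1337 lower and 1324 higher, and voom 862 lower and 774 higher. The share of all genes at an unadjusted p below 0.05 is not given, here or for the other unadjusted counts below. The adjusted shares do not stand in for it. The median log2 fold change of the 52 was −0.27 (−0.33 for large, −0.25 for small subunit and −0.41 for stalk genes), against −0.03 over all genes tested. Among the 3285 genes at least as abundant as the least abundant of the 52, 10.4% were lower and 11% higher, with a median of −0.02.

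With copies summed in, all 53 families could be tested and 42 were lower, 0 higher and 11 not passed, against 5.15% called lower and 5.85% called higher over the 13628 genes of that fit. At an unadjusted p below 0.05, 0 families were higher, and DESeq2 and limma voom each called 0 higher and 43 lower. Their totals over all genes, as deposited, were 1337 and 862 lower. The 36 genes called as deposited were all among the 42, and the 6 added were Rpl12, Rpl15, Rpl27, Rpl28, Rps13 and Rps16. Large subunit families called lower numbered 23 of 28, small subunit families 17 of 22 and stalk families 2 of 3. The extremes also drew together: changes ran from −2.27 to 0.59 on the log2 scale as deposited and from −0.52 to 0.06 with copies. Their SD across genes went from 0.34 to 0.13. The interquartile range moved little: −0.39 to −0.21 as deposited and −0.38 to −0.23 with copies. Of the families, 51 had a negative change, as did 52.8% of all genes in that fit. In 47 families every TMRM-high library was below every TMRM-low library, which held for 17.1% of all genes in that fit. The called families were 1.16- to 1.44-fold higher in TMRM-low libraries, and none of the 53 reached 1.5-fold.

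The number of calls fell when a TMRM-high library was left out. Leaving out TMRM-high library 1, 2 or 3 left 14, 11 or 10 genes lower as deposited and 20, 13 or 12 families. The family medians stayed between −0.25 and −0.29. Calls fell over the whole table too, with 198, 190 or 181 of all genes lower as deposited, against 700 with all 6 libraries. Leaving out TMRM-low library 1, 2 or 3 left 33, 33 or 39 genes and 36, 34 or 46 families. Over the whole table, 985, 1063 or 1174 genes were then lower as deposited. With the 3 TMRM-high libraries summed into 1, which leaves the spread to be taken from TMRM-low libraries alone, 2 genes (Rpl3 and Rplp0) and 0 families were called (edgeR), with 51 of 53 families still negative. Called in every one of the 6 fits without a library were Rpl3, Rpl6, Rpl7, Rpl14, Rpl24, Rpl26, Rpl32, Rplp0, Rps9 and Rps15 as deposited. Each of the other called genes among the 53 lost its call without at least 1 TMRM-high library. With copies summed in, 12 families were called in all 6 of these fits. They were Rpl6, Rpl7, Rpl13, Rpl14, Rpl24, Rpl26, Rpl28, Rpl32, Rplp0, Rps7, Rps9 and Rps15. The Rpl3 family was not among them. It was called whichever TMRM-low library was left out, but missed the threshold whichever TMRM-high library was left out.

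**Figure D2:**
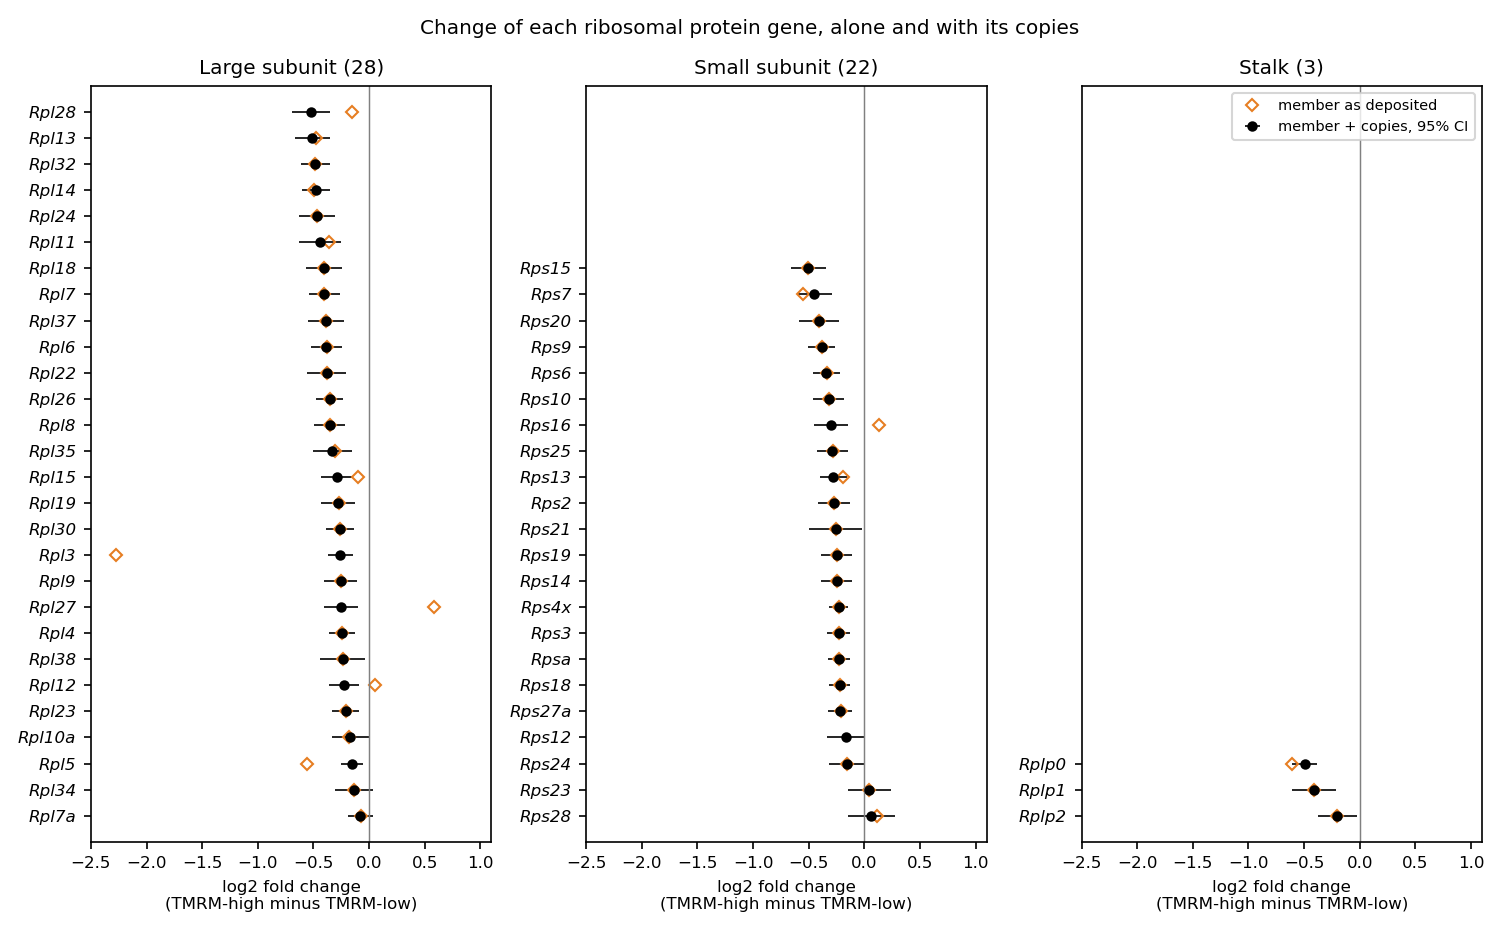
Log2 fold change (TMRM-high minus TMRM-low, horizontal axis) of each gene by class, as deposited (orange diamonds) and with copies summed in (black points with 95% confidence intervals). Black points lie between −0.52 and 0.06, while the diamonds of Rpl3 (−2.27), Rplp0 (−0.61), Rpl5 (−0.56), Rps7 (−0.55), Rps28 (0.12), Rps16 (0.13) and Rpl27 (0.59) lie outside that range.

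Rpl3 showed the largest change of the 52 as deposited, and its pseudogene went the other way. Rpl3 was at 580, 559 and 580 CPM in TMRM-high libraries 1 to 3 and at 2892, 2619 and 2790 CPM in TMRM-low libraries 1 to 3. The groups did not overlap, and the log2 fold change was −2.27 (SE 0.052, edgeR adjusted p = 7.11e-07). Rpl3-ps1 was at 1775, 1720 and 1746 CPM in TMRM-high but 7.64, 0.874 and 2.34 CPM in TMRM-low libraries, a change of 8.90 (SE 0.548, edgeR adjusted p = 0.000102). Copies held 75.1% to 75.5% of the Rpl3 family's counts in each TMRM-high library and at most 0.267% in a TMRM-low library. The family stood at 2356, 2280 and 2327 CPM against 2899, 2621 and 2793 CPM, again without overlap, and its change was −0.26 (SE 0.0472, edgeR adjusted p = 0.0139). The 2 bases in capitals above are the ones within the aligned part that separate Rpl3 from this copy. Whether all 6 libraries were quantified against the same transcript index is not stated in the sources, and its part in the opposite changes of parents and copies was not tested.

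The stalk, which recruits translation factors to the ribosome through Rplp0 and the dimers of Rplp1 and Rplp2, was lower in 2 of its 3 genes. Rplp0 was at 1832, 1754 and 1800 CPM in TMRM-high and 2894, 2664 and 2636 CPM in TMRM-low libraries, with no overlap (−0.61, SE 0.0489, edgeR adjusted p = 0.000304). Its copy Gm8730 went the other way, at 154, 134 and 146 against 0.81, 0.374 and 0.272 CPM (8.20, SE 0.284, edgeR adjusted p = 6.02e-06). The copy held 7.11% to 7.74% of the family in TMRM-high libraries, far less than Rpl3-ps1 did, and the Rplp0 family was lower by −0.49 (SE 0.0492, edgeR adjusted p = 0.000795). Rplp1 was at 1041, 906 and 964 against 1303, 1411 and 1145 CPM, also apart, and fell by 0.41 on the log2 scale (SE 0.0858, edgeR adjusted p = 0.0241). Rplp2 was at 823, 707 and 752 against 892, 921 and 808 CPM, where TMRM-high library 1 lay above TMRM-low library 3, and it did not pass (−0.20, 95% interval −0.37 to −0.03, edgeR adjusted p = 0.14).

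Among other large subunit genes, the smallest p-values belonged to Rpl14, Rpl32, Rpl26, Rpl24, Rpl7, Rpl6 and Rpl13. Rpl14, a protein found in eukaryotic but not bacterial ribosomes, was at 1005, 929 and 921 CPM in TMRM-high and 1406, 1326 and 1279 CPM in TMRM-low libraries (−0.49, SE 0.057, edgeR adjusted p = 0.00183). Rpl32 was at 1207, 1103 and 1121 against 1664, 1622 and 1513 CPM (−0.48, SE 0.0565, edgeR adjusted p = 0.00189). Both genes were well apart between groups, and Rpl32 has no copy in the table. Rpl24, which forms a bridge between the subunits and whose Bst mutation lowers protein synthesis in mouse HSCs, was at 458, 427 and 443 against 653, 619 and 563 CPM (−0.47). Rpl26, which lies near the exit of the peptide tunnel, was at 710, 689 and 712 against 905, 935 and 858 CPM (−0.35).

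Rpl7 was at 1250, 1241 and 1269 CPM in TMRM-high and 1724, 1730 and 1508 CPM in TMRM-low libraries (−0.40). Rpl6 was at 1028, 955 and 1011 against 1367, 1303 and 1217 CPM (−0.38). Rpl13 was at 2279, 2141 and 2112 against 3376, 2886 and 2821 CPM (−0.48). In all 3 genes the groups were apart, and edgeR adjusted p-values of these last 5 genes ran from 0.00508 to 0.00694. Rpl13 was no longer called without TMRM-high library 3 (−0.45, edgeR adjusted p = 0.0512).

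Rpl5 and Rpl11 bind 5S rRNA, and when ribosome assembly fails they bind Mdm2, which frees p53. Rpl11 was at 505, 455 and 474 CPM in TMRM-high and 704, 564 and 574 CPM in TMRM-low libraries, with no overlap (−0.36, SE 0.0936, edgeR adjusted p = 0.0484). Its family was lower by −0.44 (SE 0.0798, edgeR adjusted p = 0.0135). Rpl5 itself was listed at only 55.4, 61.8 and 53.5 against 99.0, 60.2 and 91.6 CPM, groups that overlap (−0.56, edgeR adjusted p = 0.114), although it was called lower without TMRM-low library 2 (−0.74, edgeR adjusted p = 0.0107). Its copy Gm15500, at 1381, 1372 and 1352 against 1490, 1564 and 1451 CPM, held most of the family's counts in every library and is identical to Rpl5 over the aligned bases. The Rpl5 family had a change of −0.15 (SE 0.0417, edgeR adjusted p = 0.0539) and just missed the threshold, with groups apart.

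Several large subunit genes changed sign or standing once their copies were added. Rpl12, which sits at the base of the stalk, was listed at 66.5, 58.2 and 63.5 against 73.9, 55.0 and 52.3 CPM (0.05, overlapping), but its copy Gm10275 at 629, 617 and 630 against 775, 752 and 699 CPM (−0.25, edgeR adjusted p = 0.0279). The Rpl12 family was lower by −0.23 (edgeR adjusted p = 0.0441). Rpl27 was the only gene with every TMRM-high library above every TMRM-low library, at 442, 381 and 469 against 340, 197 and 324 CPM (0.59, SE 0.195, edgeR adjusted p = 0.104), and its copies were at 152, 167 and 106 against 320, 539 and 323 CPM. The Rpl27 family was apart in the other direction, at 594, 548 and 575 against 660, 735 and 647 CPM (−0.25, SE 0.0657, edgeR adjusted p = 0.0494).

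Rpl28, a protein that yeast ribosomes lack, was at 539, 466 and 510 CPM in TMRM-high and 740, 272 and 672 CPM in TMRM-low libraries (−0.15, SE 0.319, not passed). TMRM-low library 2 was low for the gene, and its copies stood at 492 CPM there against at most 0.327 CPM in any other library. Without that library Rpl28 itself was called lower (−0.48, edgeR adjusted p = 0.0155), and without TMRM-low library 1 its change was 0.10. The Rpl28 family was at 539, 467 and 510 against 740, 764 and 673 CPM (−0.52, SE 0.0739, edgeR adjusted p = 0.00479), the most negative change of any family. Rpl15 was listed at 167, 148 and 169 against 171, 147 and 201 CPM, and its copy Rpl15-ps3 at 862, 845 and 848 against 1148, 988 and 1064 CPM. The copy fell by 0.32 on the log2 scale (edgeR adjusted p = 0.016) and the family by 0.29 (edgeR adjusted p = 0.0244). Rpl7a, the family nearest to no change in this class, was listed at 937, 889 and 944 against 994, 978 and 946 CPM (−0.07, 95% interval −0.19 to 0.04).

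**Figure D3:**
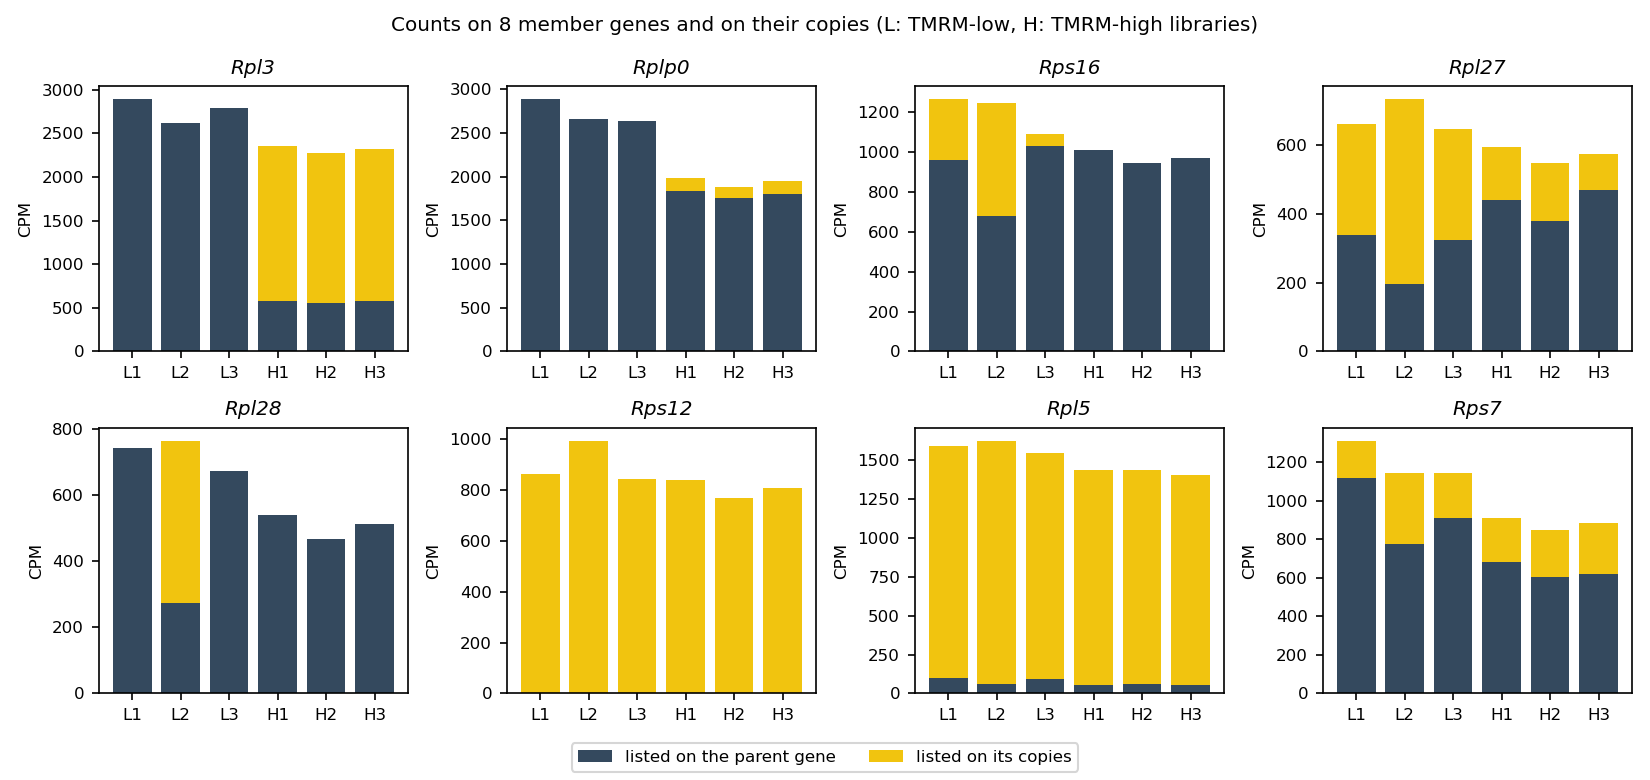
CPM listed on the parent gene (dark) and on its copies (yellow), stacked from 0, in TMRM-low (L1 to L3) and TMRM-high (H1 to H3) libraries for 8 families. Rpl3-ps1 makes up most of the Rpl3 family in the TMRM-high libraries alone, Rpl28 copies stand out in TMRM-low library 2, and Rps12 counts lie on copies in all 6 libraries.

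Small subunit genes called with the smallest p-values were Rps9, Rps15, Rps4x, Rps6, Rps20, Rps10, Rps18 and Rpsa. Rps9, which lines the mRNA entry, was at 1758, 1621 and 1649 CPM in TMRM-high and 2289, 2168 and 2101 CPM in TMRM-low libraries (−0.38, SE 0.0517, edgeR adjusted p = 0.00375). Rps15, in the head of the subunit, was at 677, 607 and 617 against 926, 934 and 833 CPM (−0.50, SE 0.0674, edgeR adjusted p = 0.00382). Neither has a copy in the table, although 43.0% of the words of Rps9 and 63.4% of those of Rps15 also occurred in another gene. Both stayed called when any 1 library was left out. Rps20, another head protein, was at 778, 717 and 715 against 1083, 915 and 931 CPM (−0.41). Rps10 was at 553, 491 and 533 against 641, 678 and 649 CPM (−0.32), and both genes were apart between the groups.

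Rps6, the target of S6 kinase, was at 2210, 2149 and 2182 CPM in TMRM-high and 2947, 2567 and 2720 CPM in TMRM-low libraries (−0.33, SE 0.0551, edgeR adjusted p = 0.00954). Rps4x, encoded on the X chromosome, was at 1593, 1603 and 1602 against 1902, 1875 and 1854 CPM (−0.23). Rps18, also of the head, was at 1803, 1712 and 1752 against 2065, 2087 and 1990 CPM (−0.22). The groups did not overlap for these genes. Within the TMRM-low group the SD was 23.9 CPM for Rps4x and 50.8 CPM for Rps18, but 191 CPM for Rps6. Rpsa, also known as the laminin receptor precursor, was at 2775, 2552 and 2588 against 3096, 3099 and 3070 CPM (−0.23). Rps27a, made as a fusion with ubiquitin, was at 1139, 1080 and 1122 against 1307, 1324 and 1244 CPM (−0.21). Both were apart between groups, and edgeR adjusted p-values of Rps4x, Rps10, Rps18, Rps20, Rpsa and Rps27a ran from 0.00888 to 0.0278.

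Rps19, the gene most often mutated in Diamond-Blackfan anaemia, was at 2075, 1935 and 1993 CPM in TMRM-high and 2539, 2386 and 2198 CPM in TMRM-low libraries (−0.25, SE 0.06, edgeR adjusted p = 0.0395). Rps14, lost from 1 chromosome in the 5q- syndrome, was at 1900, 1759 and 1864 against 2354, 2134 and 2059 CPM (−0.25, SE 0.0603, edgeR adjusted p = 0.0411). Both genes were apart between groups. Rps7, mutated in some cases of the same anaemia, had the most negative change of its class as deposited, at 682, 607 and 621 against 1117, 776 and 910 CPM (−0.55, SE 0.124, edgeR adjusted p = 0.0303). Its copy Gm6472 was at 230, 241 and 264 against 196, 370 and 237 CPM and did not pass, and the Rps7 family was lower by −0.45 (SE 0.066, edgeR adjusted p = 0.00561).

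Rps16, whose tail reaches the tRNA in the P site, had the highest change of the class as deposited. It was at 1011, 945 and 971 CPM in TMRM-high and 957, 681 and 1032 CPM in TMRM-low libraries (0.13, SE 0.139, overlapping, not passed). Rps16-ps2 was listed at 0 in all 3 TMRM-high libraries and at 310, 563 and 57.4 CPM in TMRM-low libraries 1 to 3. With 3 counts allowed to the whole TMRM-high group, its listed counts were at least 5567-fold lower in TMRM-high (edgeR adjusted p = 0.00776, but 0.203 when low counts were not filtered). That floor covers counting error only. All 441 bases of Rps16-ps2 are identical to Rps16, so its reads cannot be told from the parent's and the fold sets no bound on its RNA. The Rps16 family was at 1011, 945 and 971 against 1267, 1244 and 1089 CPM, lower by −0.30 (SE 0.0665, edgeR adjusted p = 0.0291). Rps13 was at 263, 276 and 254 against 286, 318 and 301 CPM and did not pass alone (−0.19), while its copy Rps13-ps2 was lower (−0.35, edgeR adjusted p = 0.0391) and so was the family (−0.28, edgeR adjusted p = 0.0172).

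Rps12 was listed at 0 in all 6 libraries, although its mRNA was not shown to be absent. A count of 0 allows up to 0.136 to 0.208 CPM per library (3 counts, counting error only), but Rps12-ps3 is identical to Rps12 over 450 bases and carried 444, 381 and 472 against 547, 679 and 497 CPM. A second copy, Rps12l1, carried 394, 386 and 335 against 314, 314 and 345 CPM. The Rps12 family stood at 838, 767 and 807 CPM in TMRM-high and 862, 994 and 842 CPM in TMRM-low libraries, and its change of −0.16 (SE 0.0736, edgeR adjusted p = 0.22) did not pass. Rps23, a protein of the decoding centre, was at 655, 610 and 629 against 680, 543 and 612 CPM (0.05, 95% interval −0.15 to 0.24). Rps28 was at 605, 550 and 566 against 503, 593 and 490 CPM (0.12, 95% interval −0.08 to 0.31). Rps23 and Rps28 overlapped between groups and were the only families with a positive change when copies were summed.

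The families that did not pass were Rpl5, Rpl7a, Rpl10a, Rpl34, Rpl38, Rplp2, Rps12, Rps21, Rps23, Rps24 and Rps28. Their changes ran from −0.25 (Rps21) to 0.06 (Rps28), and the unadjusted 95% intervals of Rpl5 (−0.25 to −0.06), Rpl38 (−0.44 to −0.03), Rplp2 (−0.37 to −0.03), Rps21 (−0.49 to −0.02) and Rps24 (−0.32 to −0.00078) lay below 0. The families of Rpl5, Rpl38, Rps21 and Rps24 passed without TMRM-low library 3. A p that misses the threshold does not show that these families were unchanged.

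**Figure D4:**
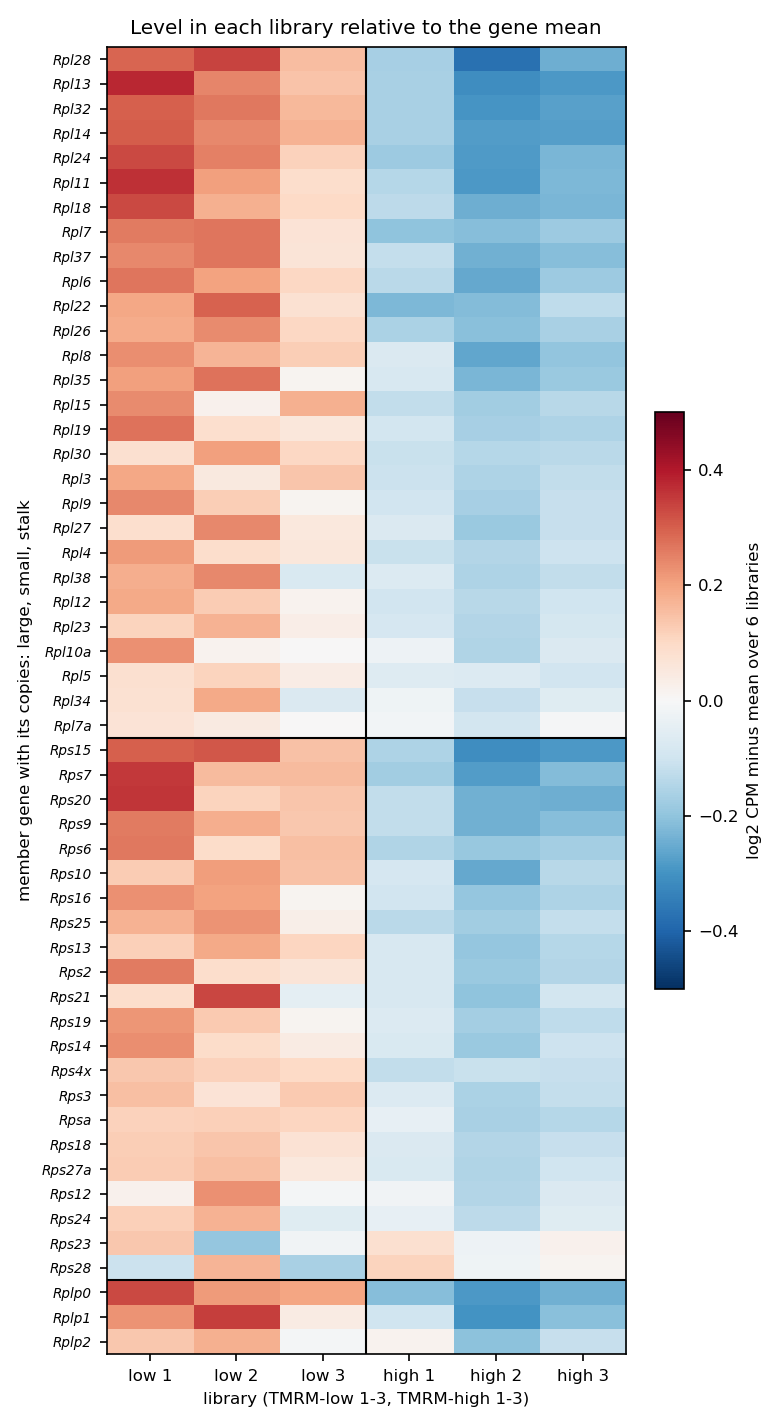
Level of each family (rows, by class) in each library (columns), as log2 CPM minus the mean of the 6 libraries, on a colour scale from −0.5 (blue) to 0.5 (red). TMRM-high columns are blue and TMRM-low columns red in most rows, while Rps23 and Rps28 have a positive change.

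The copies themselves showed changes in both directions. Of 138 copies, 35 passed the filter on low counts, and 3 were higher (Rpl3-ps1, Gm8730 and Gm10136) and 7 lower (Rpl15-ps3, Gm10275, Rps13-ps2, Rpl27-ps3, Rps16-ps2, Gm11518 and Gm10288). Gm11518, a copy of Rpl27, had 0 counts in every TMRM-high library but 27.8, 144 and 60.5 CPM in the TMRM-low ones. By the same floor its listed counts were at least 1407-fold lower in TMRM-high. All 411 bases of Gm11518 are identical to Rpl27, so this fold sets no bound on its RNA either. Gm10288, a copy of Rpl11, was at 13.7, 13.7 and 15.6 against 32.5, 94.5 and 33.4 CPM (−1.90). Rpl27-ps3 was at 152, 167 and 106 against 292, 395 and 262 CPM (−1.16). Gm10136, a copy of Rpl26, was scarce, at 2.09, 1.38 and 1.53 against 0, 0 and 0.163 CPM. Rpl10a-ps1, at 453, 422 and 475 against 543, 511 and 444 CPM, held nearly all of the 47.1% to 53.6% of the Rpl10a family that lay on copies, and did not pass. The calls of Gm10136, Rpl15-ps3, Gm10275, Rps13-ps2 and Gm10288 were lost without any 1 TMRM-high library, that of Rps13-ps2 also without TMRM-low library 1 or 2, and that of Rpl27-ps3 without TMRM-high library 1.

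Shares of copies also varied within the TMRM-low group. In 20 families the copies held at least 1% of counts in some library, and TMRM-low library 2 had the highest share of the 6 libraries in 13 of the 20. Copies of Rps16 held 24.5%, 45.2% and 5.27% of the family in TMRM-low libraries 1 to 3, and those of Rpl27 held 48.5%, 73.3% and 49.9%. Over all families, copies held 12.2% to 12.4% of counts in TMRM-high libraries and 8.83% to 11.4% in TMRM-low ones. For genes without a copy in the table, 10 of 12 were lower, with a median of −0.37 on the log2 scale.

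Levels were compared between genes per kilobase of the principal transcript. The highest were Rps18 with 3396, Rps14 with 3370 and Rpl13 with 3337 CPM per kilobase, as means over both groups, each within the range of the other two over the 6 libraries. The lowest listed above 0 were Rpl5 with 34.4, Rpl12 with 49.6 and Rpl15 with 208 CPM per kilobase, the 3 genes besides Rps12 whose families had most of their counts on copies in every library (83.4% or more). Per kilobase of the longest transcript the same 3 stayed lowest, but Rplp1, Rps6 and Rps14 were highest with 2261, 2183 and 2038.

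The start sites of these genes were compared with those of other genes in RefSeq promoters (250 bases before to 50 after the start, GRCm38.p6), where 44 of the 53 genes were found. A C followed by at least 4 pyrimidines began exactly at the annotated start in 10 of the 44 (22.7%) and in 3.01% of the 27025 genes of the table. Within 10 bases on either side of the start, such a tract was found in 25 (56.8%) and in 34.4% of all genes. Windows of 60 bases before to 20 from the start are shown for 4 genes with a tract at the start that were called lower, with the whole tract in capitals.
Rpl14 (chr9:120571457-120571536, plus strand): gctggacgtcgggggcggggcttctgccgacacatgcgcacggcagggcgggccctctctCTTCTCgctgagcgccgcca
Rpl35 (chr2:39005112-39005191, minus strand): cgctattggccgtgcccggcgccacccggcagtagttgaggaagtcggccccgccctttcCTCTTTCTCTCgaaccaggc
Rps6 (chr4:86857348-86857427, minus strand): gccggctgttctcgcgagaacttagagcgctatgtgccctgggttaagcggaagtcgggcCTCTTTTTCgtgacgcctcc
Rps18 (chr17:33955646-33955725, minus strand): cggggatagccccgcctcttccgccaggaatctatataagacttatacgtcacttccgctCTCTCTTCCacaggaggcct

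Other motifs were searched on both strands of the 300 bases. CCGGAAG, a core recognised by ETS factors, was in 18 of 44 promoters (40.9%) against 9.93% of all genes. CCAAT was in 14 (31.8%) against 41.1%, TATAAA in 4 (9.09%) against 15.7%, and AAGATGGC in 1 (2.27%) against 3.19%. As a description, and as deposited, genes with the tract at the start were called lower in 5 of 10 and genes without it in 22 of 33 tested. Medians were −0.25 on the log2 scale in both. These counts depend on the copies. With copies summed in, Rpl15 and Rpl28, which have the tract at the start, were called lower as well. So were Rpl12, Rpl27, Rps13 and Rps16, which lack it there.

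Cytosolic ribosomal protein genes outside the 53 were lower or did not pass. Of 25 tested (Rps27 was listed at 0 in all 6 libraries), 12 were lower, 0 higher and 13 not passed, with a median of −0.23 on the log2 scale. At an unadjusted p below 0.05, 15 were lower and 0 higher, and DESeq2 and voom also called 0 higher. Rpl13a was at 1292, 1200 and 1266 CPM in TMRM-high and 1690, 1600 and 1531 CPM in TMRM-low libraries (−0.36, edgeR adjusted p = 0.0059). Rpl29 (−0.38) and Rpl17 (−0.31) were also apart between groups and called. Without TMRM-high library 1, 2 or 3, the number lower was 5, 2 or 2. None of 7 tested paralogs such as Rpl7l1 (−0.32, edgeR adjusted p = 0.0692) and Rps27l (−0.18, 0.173) passed, with 2 lower at an unadjusted p below 0.05 and 1 lower by DESeq2.

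Other mRNAs known for the same kind of tract, mostly of translation factors, were called about as often as genes in general by edgeR. Of 27 tested, 1 was lower, 1 higher and 25 not passed, with a median of −0.12, against 5.12% lower and 5.84% higher over all genes. Eef1d, a subunit of the exchange factor for elongation factor 1, was at 217, 234 and 227 CPM in TMRM-high and 336, 315 and 300 CPM in TMRM-low libraries (−0.49, edgeR adjusted p = 0.00495). Eif4a2, an initiation helicase, was at 435, 443 and 440 against 235, 277 and 359 CPM (0.60, edgeR adjusted p = 0.0347), a call lost without any 1 TMRM-high library or TMRM-low library 2. At an unadjusted p below 0.05 in edgeR, 10 of the 27 genes were lower and 1 higher. DESeq2 called 7 of the 27 lower, against 1337 of all 13662 genes, and voom 4, against 862. Without TMRM-low library 1, 2 or 3, edgeR called 3, 4 and 4 lower.

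Genes for making ribosomes were called lower in 4 of 47, with 1 higher, 42 not passed and a median of −0.13. Over all genes tested, 5.12% were lower and 5.84% higher. Myc, the transcription factor that drives ribosome production, was at 244, 235 and 237 CPM in TMRM-high and 382, 338 and 341 CPM in TMRM-low libraries (−0.57, SE 0.0697, edgeR adjusted p = 0.00222). Ncl, the nucleolar protein nucleolin, was at 989, 939 and 943 against 1222, 1253 and 1145 CPM (−0.34, edgeR adjusted p = 0.00687). Both genes were apart between groups. Mybbp1a (−0.41) and Nop58 (−0.37), nucleolar proteins as well, were lower and Taf1d (0.53), a factor of RNA polymerase I, was higher. All but Myc of these 5 lost their call without at least 1 TMRM-high library, and the number lower was then 1 or 2. Without TMRM-low library 2 it was 8.

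Genes upstream in the pathway were measured as well. None of 22 genes from mTORC1 to S6 kinase and LARP1 passed in edgeR (median 0.10, with 3 higher and 2 lower at an unadjusted p below 0.05). DESeq2 called 2 higher and 2 lower, against 1324 and 1337 of all 13662 genes. With voom 2 were higher, against 774 of all genes. Tsc2 (0.60, edgeR adjusted p = 0.0705) and Rps6kb1, which encodes S6 kinase (0.88, edgeR adjusted p = 0.0941), had the smallest p-values. Of 17 tested genes around Mdm2 and p53, Cdkn1a, an inhibitor of the cell cycle, was at 173, 171 and 174 CPM in TMRM-high and 91.6, 113 and 121 CPM in TMRM-low libraries (0.67, edgeR adjusted p = 0.00984). Pmaip1, a trigger of apoptosis, was higher too (0.94, edgeR adjusted p = 0.0244), and 15 did not pass (median 0.03). The share over all genes tested was 5.84% higher. The calls of Cdkn1a and Pmaip1 were lost without any 1 TMRM-high library, and 4 of these genes were higher without TMRM-low library 3.

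The ribosome of mitochondria, a separate set of proteins, served as a comparison. Of 77 tested genes, 4 were lower (Mrpl52, Mrpl2, Mrpl27 and Mrpl38, from −0.89 to −0.52), 0 were higher and 73 did not pass, with a median of −0.13 on the log2 scale. The share over all genes was 5.12% lower, so this count lay near it. At an unadjusted p below 0.05, 14 were lower and 3 higher. DESeq2 called 9 lower and 2 higher, against 1337 lower and 1324 higher of all 13662 genes. With voom 4 were lower and 1 higher, against 862 lower and 774 higher of all genes. Without TMRM-high library 1, 2 or 3, edgeR called 1, 0 or 0 lower, and without TMRM-low library 1, 2 or 3 it called 7, 7 or 8 lower, with 4 higher in the fit without TMRM-low library 2. Whether cytosolic and mitochondrial ribosomal protein genes differ from each other was not tested.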

How the data were processed

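RNA was measured in 6 libraries, 3 TMRM-high and 3 TMRM-low, made per the labels' protocols by a low-input method with 13 PCR cycles and paired reads of 150 bases, with no mention of molecular identifiers or strand. The submitters' processing notes name GRCm38, Trim Galore 0.5.0 and Salmon, the last as 0.03.1. Which annotation they used, whether it was the same for all 6 libraries, and how transcripts were joined into genes was not given in the sources used here. Values as deposited are the authors' expected counts per Ensembl gene, not scaled to depth. Salmon divides reads among similar transcripts, so counts of a gene and its near-identical copies can move between them.

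Counts were rounded. Genes were kept by filterByExpr, scaled by TMM and fitted with edgeR 4.0.16 (robust quasi-likelihood, group only, two-sided, Benjamini-Hochberg over 13662 genes) in R 4.3.3. Copies were found by 31-base words of GENCODE M21 transcripts, and sums with copies were fitted anew over 13628 genes. Positions come from GENCODE M21. The principal transcript was the best APPRIS and support level, the shortest where tied. The test was tried on simulated counts. As alternatives, the scaling was changed (RLE, total counts, upper quartile, or TMM without ribosomal protein genes or the most abundant ID), as were the count filter, the tool (DESeq2 1.42.0, limma 3.58.1 voom with quality weights), the threshold (0.10, or 0.05 with at least 1.5-fold) and the libraries (a replicate block, 1 library omitted, TMRM-high libraries summed). Alternatives to the fit with summed copies were added after the data were seen.

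The genes, lists and rules were chosen with earlier results of these data known. Values in every library are given by rule for the stalk, 8 preset genes, the called genes with the smallest p, extremes and genes nearest to no change; other genes in the text were chosen after their values were seen.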

Additional observations from a re-analysis of the deposited data

How the results depend on the processing

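With RLE, upper-quartile or total-count scaling, scaling without ribosomal protein genes or the most abundant ID, other filters, DESeq2, voom or an adjusted p of 0.10, 35 to 37 genes were lower. With a minimum of 1.5-fold 2 were (Rpl3 and Rplp0), and with TMRM-high libraries summed into 1 also 2, and 0 families. Leaving out each library gave 10 to 39 genes and 12 to 46 families, while 181 to 1174 of all genes were lower as deposited. For families, RLE gave 42, total-count scaling 40, and DESeq2 and voom 43 each. Rpl27 was the 1 gene higher in DESeq2, voom and the replicate block.

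Whether replicate numbers pair the libraries is not stated in the labels. Deviations of same-numbered libraries correlated at −0.0072, 0.012 and 0.012 across genes, and those of differently numbered libraries at −0.019 to 0.0074. This cannot decide the question, because a shared effect smaller than the spread of the libraries would not show. With the number as a block 33 genes were lower, 1 higher and 37 families lower.

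Changes turned direction with copies summed for Rpl12 (−0.23), Rpl27 (−0.25) and Rps16 (−0.30). When a library was left out in turn, changes that crossed 0 ran over these ranges: Rpl12 −0.037 (and −0.0068) to 0.23, Rpl15 −0.20 to 0.029, Rpl28 −0.48 to 0.10, Rps16 −0.026 to 0.26, Rps23 −0.032 to 0.13 and the copy Gm6472 −0.30 to 0.18. The library left out was TMRM-low 1 for Rpl28, TMRM-low 2 for Rps16, Rps23 and Gm6472, TMRM-low 3 for Rpl15 and either of the last 2 for Rpl12. Summing copies is by construction the cause of the first 3, and that of the others was not tested. In DESeq2, 7 translation factor mRNAs, 7 genes of ribosome production and 9 mitochondrial ribosomal protein genes were lower, against 1, 4 and 4 in edgeR. Over all genes tested, DESeq2 called 1337 lower and edgeR 700. A count of 0 allows at most 0.208 CPM in any library, but which of 2 identical sequences a read came from is beyond any depth.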
